A study of Mus musculus with 12 samples.

Results

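Expression of 10 identity genes of large peritoneal macrophages was followed in peritoneal macrophages of mice on 2 diets, before and after lipopolysaccharide (LPS). The genes were Gata6, Icam2, Adgre1, Timd4, Rarb, Selp, Itga6, Prg4, Tgfb2 and F5. They were named as a list, with earlier results of these data known, and the RefSeq transcript of highest mean count stood for each. All 10 were found among 24562 genes, and all 10 passed the filter on low counts, which left 12641 genes. After LPS, Adgre1, Timd4 and Prg4 rose and Itga6 fell in both diets. Gata6, Icam2, Tgfb2, F5 and Selp passed in neither diet when all 12 libraries were fitted by group alone. With the number in the labels fitted as a block, Gata6 passed as lower in HFD.

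Large peritoneal macrophages are the main resident phagocytes of the abdominal cavity. The transcription factor GATA6 sustains their identity, and its expression depends on retinoic acid, much of it made by mesothelial and stromal cells of the cavity lining. Inflammation is known to make these cells stick to surfaces and clots, so that few can be washed out, while monocyte-derived macrophages take their place. In culture, away from the retinoic acid of the cavity, macrophages are known to lose much of this programme.

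The 12 libraries came from peritoneal macrophages of female mice on a chow or a high fat diet (HFD), at 0 h or 24 h of LPS, a glycolipid of the outer membrane of Gram-negative bacteria. The groups, each with 3 libraries, were chow at 0 h, chow after 24 h of LPS, HFD at 0 h and HFD after 24 h of LPS. The series title concerns the pentose phosphate pathway and inflammatory responses of macrophages in hypercholesterolemia. The labels do not give the strain or genotype, the age of the mice, the length of the diet, the LPS dose, whether LPS was given in culture or to the animal, or whether the cells were resident or recruited with an irritant. Nor do they state that replicates were separate animals, and p-values therefore reflect the spread among these samples alone, which may be technical. Since no group waited 24 h without LPS, LPS and elapsed time cannot be told apart, and an LPS change below means 24 h against 0 h.

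The shallowest library, HFD 0 h replicate 3, held 2360244 counts and stood apart in depth: the other 11 held 9135057 to 20688308. In it 3 counts equal 1.27 CPM (counts relative to the library total), against 0.145 CPM in the deepest library. Both values use unscaled totals, whereas the levels below use totals scaled by TMM, so they are approximate for those levels. The label of HFD 24 h replicate 1 and those of all chow 24 h libraries name lane 8, which no other label does. In chow LPS thus cannot be told apart from lane, and at 24 h diet is partly mixed with lane. Macrophage markers were abundant, with Csf1r, the receptor of the macrophage growth factor CSF1, at 993 CPM and the lysosomal Cd68 at 2799 CPM on average in chow 0 h; both were chosen as markers and not by their p.

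The members lie on 6 chromosomes, with positions from RefSeq for GRCm38.p6, the assembly behind mm10. The transcriptional regulators are Gata6 (NM_010258) and Rarb, which encodes retinoic acid receptor beta (NM_011243, chr14:16430839-17082331). The surface receptors and adhesion molecules are Adgre1, which encodes F4/80 (NM_010130, chr17:57358581-57483529), Timd4, which encodes the phosphatidylserine receptor TIM4 (NM_178759, chr11:46810786-46844333), Icam2, a ligand of the leukocyte integrin LFA-1 (NM_010494, chr11:106377656-106388139), Itga6, the alpha subunit of laminin-binding integrins (NM_008397, chr2:71786886-71858427), and Selp, P-selectin (NM_011347, chr1:164115264-164150026). The secreted products are Prg4, the lubricating proteoglycan lubricin (NM_021400, chr1:150449412-150466221), Tgfb2, the cytokine TGF-beta 2 (NM_001329107, chr1:186622787-186709697), and F5, coagulation factor V (NM_007976, chr1:164151835-164220277). Selp and F5 are neighbours, with 1808 bases between them.

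Promoter sequences of 5 of the 10 members (Selp, F5, Tgfb2, Timd4 and Rarb) were at hand in a RefSeq table of 32851 promoters for GRCm38.p6. The 250 bases before each start are shown for the neighbours Selp and F5, which shared their highest HFD libraries, and for Timd4, which rose with LPS in both diets. For Rarb a stretch of 29 bases is shown around the direct repeat of the retinoic acid response element, in capitals. All are written 5′ to 3′ on the strand of the gene.
Selp promoter (chr1:164115014-164115263, plus strand): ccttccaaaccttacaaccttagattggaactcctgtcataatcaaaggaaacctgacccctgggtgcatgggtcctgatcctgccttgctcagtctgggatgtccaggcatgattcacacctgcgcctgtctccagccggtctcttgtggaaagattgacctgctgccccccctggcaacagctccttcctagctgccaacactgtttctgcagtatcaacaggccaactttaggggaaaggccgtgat
F5 promoter (chr1:164151585-164151834, plus strand): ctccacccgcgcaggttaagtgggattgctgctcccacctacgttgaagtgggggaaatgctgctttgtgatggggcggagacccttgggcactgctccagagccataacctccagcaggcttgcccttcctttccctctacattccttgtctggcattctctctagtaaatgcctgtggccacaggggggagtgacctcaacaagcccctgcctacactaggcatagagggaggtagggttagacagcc
Timd4 promoter (chr11:46810549-46810798, plus strand): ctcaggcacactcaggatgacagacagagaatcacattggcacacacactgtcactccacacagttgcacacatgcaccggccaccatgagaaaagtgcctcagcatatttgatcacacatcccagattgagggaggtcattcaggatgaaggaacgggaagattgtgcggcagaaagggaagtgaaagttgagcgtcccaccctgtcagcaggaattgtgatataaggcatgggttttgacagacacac
Rarb element (chr14:16575507-16575535, minus strand): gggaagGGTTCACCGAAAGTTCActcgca
The Rarb repeat begins 53 bases before the start in the table, and the GENCODE model of the counted transcript starts 67 bases upstream of that start, so the repeat lies within that model's first exon. The pattern GGTTCA, followed after 5 bases of any kind by the letters AGTTCA and read on both strands, stood in the 250 bases before the start of 2 of the 32851 promoters (0.00609%). Rarb is 1 of these 2. The letters searched are those of its own element, so its match was fixed in advance and the share is no measure of rarity. For GATA factors the letters AGATAA were searched on both strands, along with the variants that begin with T, end in G or do both. None of the 5 member promoters held any of them, against 26.5% of all promoters in the table. A match is a description of the letters, and their absence says only that they are not in this window.

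Per kilobase of transcript, the members spanned a wide range of levels. Over the 12 libraries Adgre1 averaged 163 CPM per kb and Itga6 27.1 CPM per kb. Prg4 followed at 5.65 CPM per kb, Icam2 at 3.87 CPM per kb and Gata6 at 3.09 CPM per kb. Tgfb2, Rarb, Timd4, F5 and Selp averaged 1.43, 1.04, 0.993, 0.946 and 0.354 CPM per kb. Neighbours in this order overlapped in the range of their libraries, except Adgre1, whose lowest library (55.5 CPM per kb) lay just above the highest of Itga6 (53.3 CPM per kb). In chow 0 h only Adgre1 and Itga6 were above the median tested gene, at percentiles 96.5 and 89.2 of level per kilobase. The other 8 members lay between percentiles 4.51 (Selp) and 37.2 (Gata6). Gata6, Timd4 and Selp, identity genes of this cell type, were thus present at low levels beside abundant Adgre1 and Itga6. Among the further genes reported as enriched in these cells, named here after their values were seen, Fn1 averaged 1800 CPM and Thbs1 226 CPM in chow 0 h, while Serpinb2 averaged 1.51 CPM. Fewer cells of this type and less RNA per cell cannot be told apart in these bulk libraries.

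**Figure D1:**
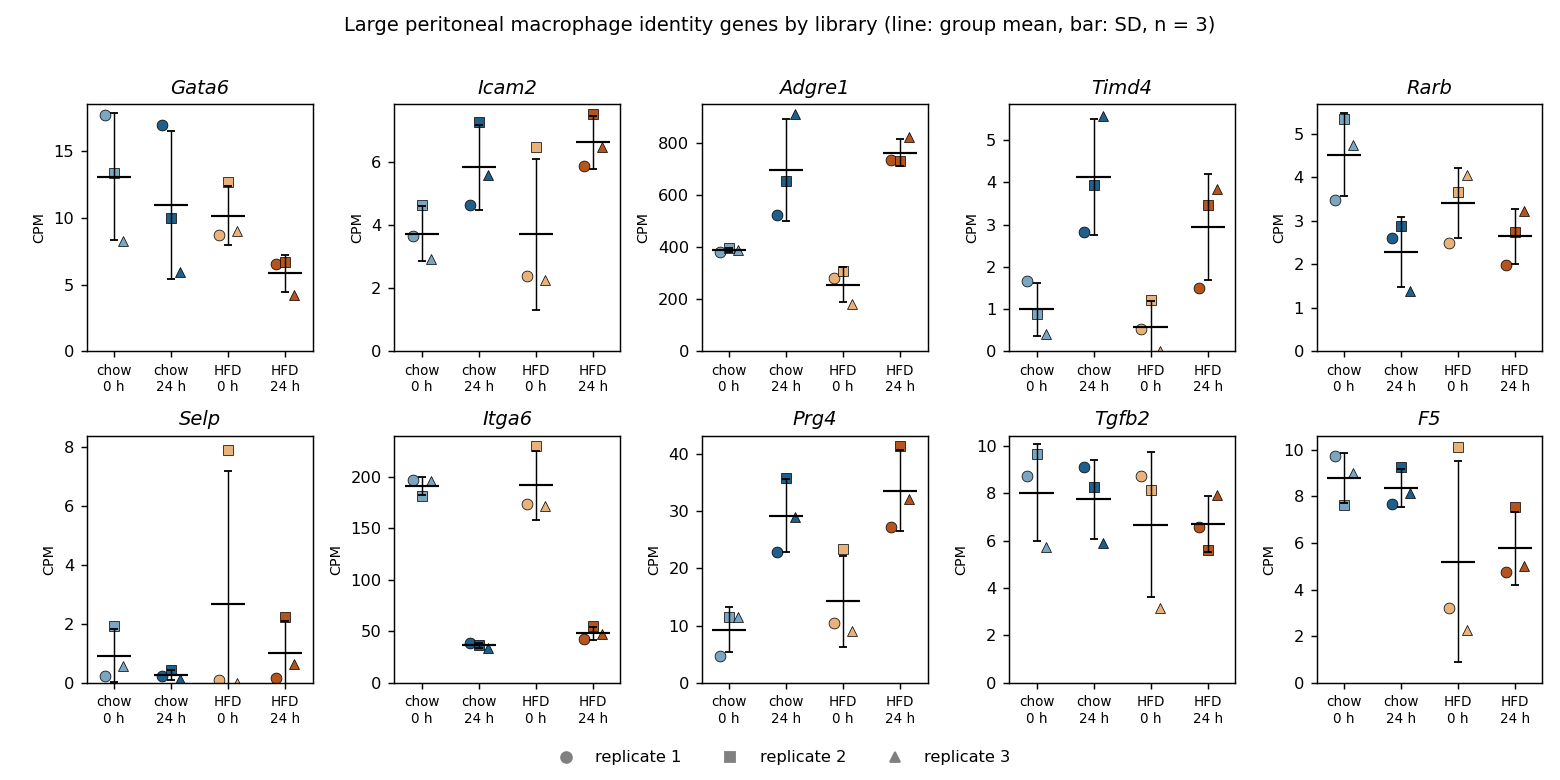
Level of each gene (CPM, linear axis from 0) in every library, by group, with the replicate as the marker shape; horizontal lines are group means and bars are SDs of 3 libraries, cut at 0 where they reach below it. The Itga6 levels at 24 h, 34.1 to 54.9 CPM, sit far below those at 0 h, 171 to 230 CPM, and Selp stands out in HFD 0 h replicate 2 at 7.90 CPM.

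In chow, 3 of the 10 members rose with LPS (Adgre1, Timd4 and Prg4) and 2 fell (Itga6 and Rarb), with an edgeR adjusted p under 0.05 (quasi-likelihood test, Benjamini-Hochberg over all genes). Of all 12641 genes tested, 13.7% rose and 12.9% fell, together 26.6%. In HFD the same 3 members rose and Itga6 fell, against 12.7% of genes that rose and 12% that fell, together 24.6%. The libraries at 0 h and 24 h did not overlap for 6 members in chow (45.5% of all genes) and for 5 in HFD (35.4% of all genes). The median log2 fold change of the members was -0.06 in chow and -0.05 in HFD, and that of all genes was 0.00 in both. Members thus moved in both directions, without a common shift. Once lane was fitted, an adjustment that rests on HFD 24 h replicate 1, 3 members passed in chow. Of all genes 1509 passed in that fit, against 3357 without lane. The HFD count of 4 members rested on single libraries. It was 2 without HFD 0 h replicate 1, where 2771 of all genes passed, and 2 without HFD 24 h replicate 2 (2630 genes). It was 6 without HFD 0 h replicate 2 (2838 genes) and 3 without the shallow HFD 0 h replicate 3 (2995 genes). With all libraries 3116 genes passed.

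**Figure D2:**
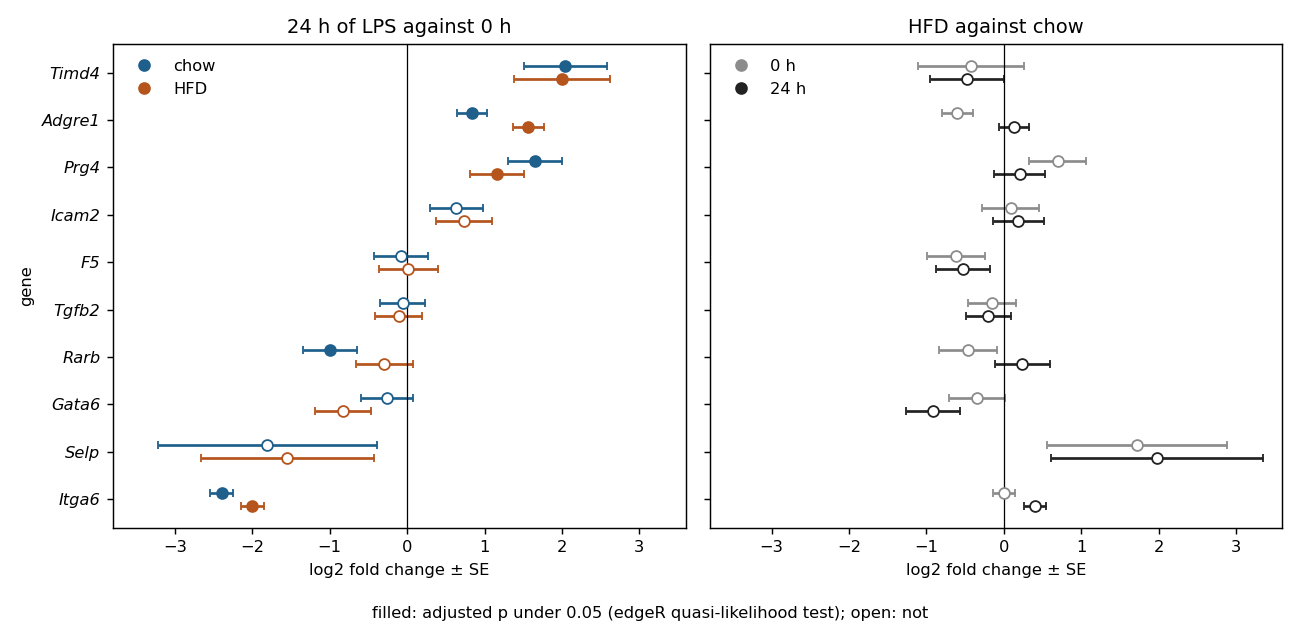
Log2 fold change with its SE for each gene, with LPS in each diet (left) and for HFD against chow at each time (right), from edgeR over 12 libraries; filled points passed an adjusted p of 0.05. Itga6 lies at -2.40 and -2.0 in the left panel, Timd4 at 2.04 and 2.0, and no point is filled in the right panel.

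Among the surface receptors, Adgre1 was the most abundant member. F4/80, its product, is the classic surface marker of mouse macrophages and is highest on large peritoneal macrophages. It stood at 383, 398 and 391 CPM in chow 0 h and at 526, 656 and 913 CPM in chow 24 h. In HFD it stood at 282, 309 and 180 CPM at 0 h and at 738, 732 and 824 CPM at 24 h. Every 24 h library was above every 0 h library, in both diets. The LPS change was a log2 fold change of 0.84 ± 0.19 (SE) in chow (1.79-fold, edgeR adjusted p = 0.00349) and 1.57 ± 0.20 in HFD (2.96-fold, edgeR adjusted p = 1.22e-05). With the lane tag fitted, the chow value was 0.91 ± 0.37 and no longer passed (edgeR adjusted p = 0.135). Without the shallow HFD 0 h replicate 3, the lowest of its group, the HFD value was 1.38 ± 0.19 (edgeR adjusted p = 5.22e-05).

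Timd4, whose product TIM4 lets resident macrophages bind the phosphatidylserine of dying cells, was counted 37 times in chow 0 h and 167 times in chow 24 h. Its levels were 1.66, 0.892 and 0.416 CPM in chow 0 h and 2.84, 3.95 and 5.57 CPM in chow 24 h. In HFD 0 h they were 0.520, 1.22 and 0 CPM, from 16 counts in all, and in HFD 24 h 1.5, 3.47 and 3.84 CPM, from 164 counts. The count of 0 fell in the shallow library, where it allows up to about 1.27 CPM on the unscaled total. The 24 h libraries were above the 0 h libraries in both diets, by a narrow margin in HFD. The log2 fold changes were 2.04 ± 0.54 in chow (4.12-fold, edgeR adjusted p = 0.00875) and 2.0 ± 0.62 in HFD (3.99-fold, edgeR adjusted p = 0.0253). The size depended on single libraries at these counts. In chow it was 2.66 without chow 0 h replicate 1 and 3.32 with the lane tag fitted. In HFD it was 2.86 without HFD 0 h replicate 2. The HFD call was lost when HFD 0 h replicate 1 was left out (edgeR adjusted p = 0.117), and likewise for HFD 24 h replicates 2 (0.0642) and 3 (0.0886).

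Other genes of phosphatidylserine recognition moved mostly the other way. Of 15 receptors and bridging proteins, 13 were tested. In chow 2 rose and 9 fell, with a median log2 fold change of -0.74, and in HFD 2 rose and 7 fell, with a median of -0.67 (26.6% and 24.6% of all genes were called). The inhibitory receptor Cd300a fell, with log2 fold changes of -2.19 ± 0.23 in chow and -2.06 ± 0.23 in HFD. Gas6, the ligand that bridges phosphatidylserine to the TAM receptors, fell too (-2.10 ± 0.24 and -1.75 ± 0.24). Cd300lf, which binds phosphatidylserine, rose by 1.82 ± 0.14 and 1.26 ± 0.14. Timd4 thus rose while the bridging proteins Gas6 and Mfge8 fell, Mfge8 with -1.61 ± 0.25 in chow and -1.33 ± 0.25 in HFD. Axl, a TAM receptor, rose by 0.72 ± 0.17 in chow and 1.15 ± 0.17 in HFD.

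Itga6 showed the largest called change of the 10 members in chow. Its product pairs with a beta chain to bind laminin, a protein of basement membranes. Levels were 196, 181 and 195 CPM in chow 0 h and 38.4, 36.3 and 34.1 CPM in chow 24 h. In HFD they were 173, 230 and 171 CPM at 0 h and 42.2, 54.9 and 46.9 CPM at 24 h. No 24 h library came near a 0 h library. The log2 fold change was -2.40 ± 0.15 in chow (5.26-fold lower, edgeR adjusted p = 2.14e-09) and -2.0 ± 0.15 in HFD (4.0-fold lower, edgeR adjusted p = 1.76e-08). Both calls held under every alternative that was run, the lane covariate and each left-out library included.

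Icam2 lay between 2.91 and 4.62 CPM in chow 0 h and between 4.63 and 7.27 CPM in chow 24 h. In HFD it was 2.39, 6.46 and 2.25 CPM at 0 h and 5.85, 7.5 and 6.47 CPM at 24 h. The chow groups did not overlap, by a margin of less than 0.1 CPM, and the HFD groups overlapped through HFD 0 h replicate 2 alone. The log2 fold changes of 0.64 ± 0.34 in chow and 0.74 ± 0.36 in HFD did not pass (edgeR adjusted p = 0.196 and 0.154). Without HFD 0 h replicate 2 the HFD value was 1.49 ± 0.37 and passed (edgeR adjusted p = 0.00763).

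Selp, an adhesion receptor stored in platelets and endothelial cells and also found in large peritoneal macrophages, was the scarcest member, with 172 counts over all 12 libraries. Levels were 0.238, 1.95 and 0.582 CPM in chow 0 h and 0.224, 0.449 and 0.131 CPM in chow 24 h. In HFD 0 h they were 0.104, 7.90 and 0 CPM, from 1, 71 and 0 counts, and in HFD 24 h 0.158, 2.24 and 0.647 CPM. HFD 0 h replicate 2 alone thus held 71 of the 72 counts of its group. The log2 fold changes of -1.81 ± 1.41 in chow and -1.55 ± 1.12 in HFD did not pass (edgeR adjusted p = 0.401 and 0.36), and the HFD estimate ran from -2.76 to 3.50 as single libraries were left out. Platelet markers were low: the 7 listed genes summed to 1.22 CPM in HFD 0 h replicate 2, and Gp9, Ppbp and Gp5 were at 0 in the whole HFD 0 h group. Of the 7 endothelial markers, Tek, Emcn and Cldn5 were at 0 in all 12 libraries, while Kdr averaged 15.2 CPM and Cdh5 2.24 CPM in HFD 0 h. The sum of the list ran from 14.6 to 24.7 CPM in that group. The part of platelets and endothelial cells in the Selp values was not tested.

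The partners of these adhesion molecules changed in both directions. Of 14 integrins, selectins and ligands, 13 were tested, and 5 rose and 3 fell in chow (median log2 fold change -0.06), against 3 and 3 in HFD (median 0.24), where 26.6% and 24.6% of all genes were called. Icam1, the inducible relative of Icam2 that binds the same integrin, rose by 2.14 ± 0.17 in chow and 2.56 ± 0.17 in HFD. Vcam1 rose by 2.19 ± 0.32 and 2.12 ± 0.35. The tetraspanin Cd9, which associates with laminin-binding integrins, fell (-1.12 ± 0.16 and -1.2 ± 0.16).

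Prg4 rose in both diets. Lubricin, its product, coats joint and serosal surfaces. Levels were 4.76, 11.5 and 11.6 CPM in chow 0 h and 22.9, 35.7 and 29.0 CPM in chow 24 h. In HFD they were 10.4, 23.4 and 8.99 CPM at 0 h and 27.3, 41.3 and 32.2 CPM at 24 h. The groups did not overlap in either diet, and HFD 0 h replicate 2 came closest to the 24 h libraries. The log2 fold changes were 1.65 ± 0.35 in chow (3.15-fold, edgeR adjusted p = 0.00222) and 1.16 ± 0.35 in HFD (2.24-fold, edgeR adjusted p = 0.0241). The HFD value rose to 1.77 ± 0.35 without HFD 0 h replicate 2. The HFD call was lost when any of these was left out: HFD 0 h replicate 1 (edgeR adjusted p = 0.0928), the shallow HFD 0 h replicate 3 (0.0892) or replicate 2 of HFD 24 h (0.0791). Testing all genes with at least 1 count also ended it (0.0635).

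Tgfb2 did not pass in either diet. Its levels were 8.72, 9.65 and 5.74 CPM in chow 0 h and 9.11, 8.26 and 5.90 CPM in chow 24 h. They were 8.74, 8.13 and 3.15 CPM in HFD 0 h and 6.57, 5.60 and 7.95 CPM in HFD 24 h, so the groups overlapped throughout. Its log2 fold changes were -0.06 ± 0.29 and -0.11 ± 0.31 (edgeR adjusted p = 0.918 and 0.839). Of 22 tested TGF-beta ligands, receptors, SMADs and regulators, 6 rose and 5 fell in chow (median log2 fold change 0.01) and 4 rose and 4 fell in HFD (median -0.03), beside 26.6% and 24.6% of all genes called in either direction. The signalling receptor Tgfbr1 fell (-1.12 ± 0.15 in chow and -1.01 ± 0.15 in HFD), as did Tgfbr2 (-0.68 ± 0.12 and -0.60 ± 0.12). The co-receptor Eng rose by 1.59 ± 0.15 and 1.53 ± 0.15, and Pmepa1, an inhibitor of SMAD signalling, by 2.76 ± 0.27 and 2.01 ± 0.29.

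F5, the cofactor with which factor Xa makes thrombin, was 9.75, 7.62 and 8.98 CPM in chow 0 h and 7.69, 9.24 and 8.12 CPM in chow 24 h. In HFD it was 3.23, 10.1 and 2.25 CPM at 0 h and 4.75, 7.56 and 4.99 CPM at 24 h. The chow libraries formed a narrow band, whereas HFD 0 h replicate 2 was more than 6 CPM above the others of its group. Its log2 fold changes were -0.07 ± 0.35 in chow and 0.02 ± 0.38 in HFD (edgeR adjusted p = 0.909 and 0.984). Without HFD 0 h replicate 2, the HFD value was 0.98 ± 0.33 and passed (edgeR adjusted p = 0.0464).

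Gata6, the master regulator (chr18:11052510-11085636), was 17.7, 13.4 and 8.23 CPM in chow 0 h and 16.9, 9.96 and 5.96 CPM in chow 24 h. In HFD it was 8.74, 12.7 and 8.99 CPM at 0 h and 6.57, 6.66 and 4.25 CPM at 24 h. The chow groups overlapped almost fully, while every HFD 24 h library was below every HFD 0 h library. In both diets each 24 h library was below the 0 h library of the same number. The log2 fold changes were -0.26 ± 0.34 in chow and -0.83 ± 0.36 in HFD. Fitted by group alone, neither passed (edgeR adjusted p = 0.635 and 0.114, with an unadjusted p of 0.0368 in HFD). With the number as a block, the HFD value was -0.78 ± 0.23 and passed (edgeR adjusted p = 0.0182). The chow value passed under no alternative. The labels do not say that a number marks 1 animal. Within each chow group, replicate 1 was highest and replicate 3 lowest.

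Mesothelial and stromal cells, which make retinoic acid and can themselves express Gata6, were followed by their markers. The summed level of 9 mesothelial markers was 27.7, 25.0 and 15.1 CPM in chow 0 h and 25.4, 16 and 9.50 CPM in chow 24 h. In HFD it was 22.3, 16 and 29.2 CPM at 0 h and 8.31, 9.35 and 11 CPM at 24 h. In both chow groups the libraries stood in the same order for this sum as for Gata6. In HFD the orders differed: at 0 h the library highest for Gata6, replicate 2, had the lowest sum, and at 24 h the library lowest for Gata6, replicate 3, had the highest. The HFD 24 h group had the lowest median for both. Wt1, the most abundant marker of the list, averaged 11.8, 14.1, 7.65 and 6.98 CPM in the groups in the order above and did not pass with LPS (edgeR adjusted p = 0.640 in chow and 0.697 in HFD). No mesothelial marker was at 0 in a whole group. Of 6 tested, 2 fell with LPS in chow (Upk3b and Lrrn4) and 3 in HFD (with Krt8 added), against 12.9% and 12% of all genes. The median log2 fold change of the 6 was -1.72 in chow and -2.28 in HFD. At 24 h Wt1 made up most of the summed level, so the sum says little of the other markers. The sum of 8 fibroblast markers ran from 838 to 2627 CPM in chow 0 h, 1088 to 3209 in chow 24 h, 754 to 1471 in HFD 0 h and 1037 to 1171 in HFD 24 h. In both chow groups the fibroblast sum was likewise highest in replicate 1 and lowest in replicate 3. In HFD 24 h, at 1148, 1171 and 1037 CPM, it also stood in the order of Gata6. In HFD 0 h, at 754, 1031 and 1471 CPM, it did not. The part of these cells in the Gata6 values was not tested.

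**Figure D3:**
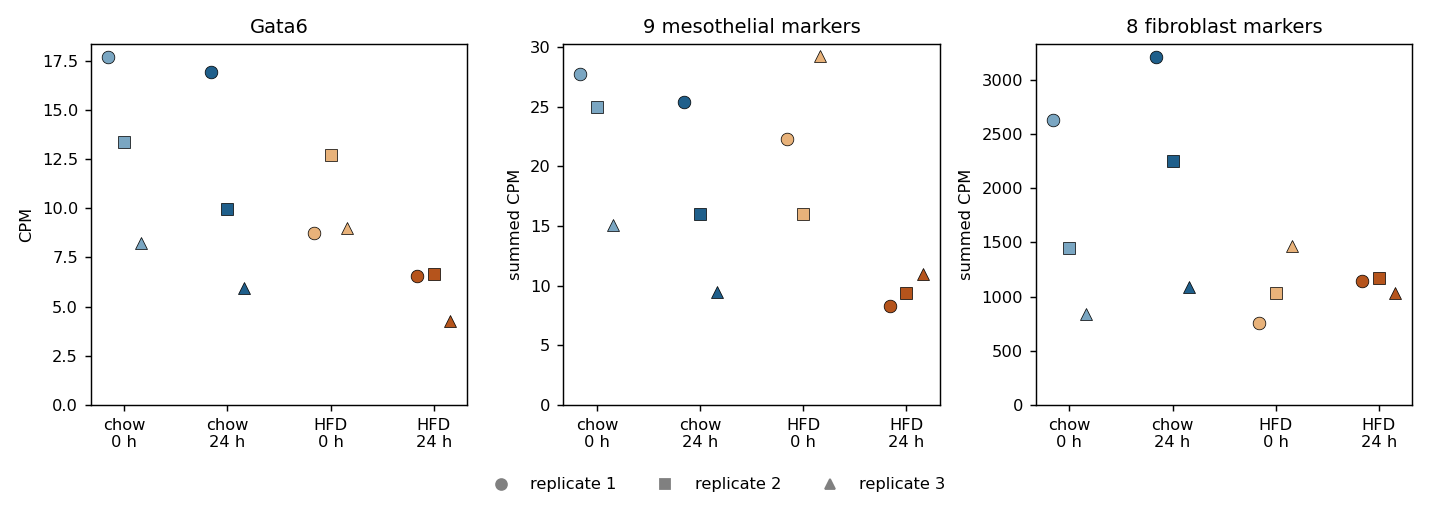
Level of Gata6 (CPM) and summed levels of 9 mesothelial and 8 fibroblast markers (CPM), by group, 1 point a library with the replicate as its shape. In both chow groups replicate 1 is the highest and replicate 3 the lowest point of all 3 panels, and the HFD 24 h libraries are at 4.25 to 6.66 CPM for Gata6.

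Rarb, a retinoic acid receptor and itself a classic target of retinoic acid through the repeat printed above, was 3.49, 5.35 and 4.74 CPM in chow 0 h and 2.61, 2.87 and 1.38 CPM in chow 24 h. In HFD it was 2.5, 3.67 and 4.05 CPM at 0 h and 1.98, 2.74 and 3.23 CPM at 24 h. The chow groups did not overlap and the HFD groups did. The log2 fold change was -0.99 ± 0.35 in chow (1.99-fold lower, edgeR adjusted p = 0.0459) and -0.29 ± 0.37 in HFD (edgeR adjusted p = 0.632), and the interaction of diet and LPS, 0.70 ± 0.51, did not pass (edgeR adjusted p = 1.0). The chow call was close to the threshold: it was lost in 11 of the 22 alternatives, with -0.40 (edgeR adjusted p = 0.777) once the lane tag was fitted. Left out in turn, chow 0 h replicates 2 and 3, all 3 chow 24 h replicates, HFD 0 h replicate 2 and HFD 24 h replicates 2 and 3 each ended it, at adjusted p from 0.0519 to 0.182. Exons of Rarb share 1793 bases with Top2b on the opposite strand, and since the use of strand in counting is not given, their reads cannot be told apart. Top2b itself was at 78.2, 76.1 and 73.6 CPM in chow 0 h and at 51.1, 49.4 and 60.9 CPM in chow 24 h, a log2 fold change of -0.50 ± 0.19 (edgeR adjusted p = 0.0631), and its part in the Rarb value was not tested.

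Of 21 other genes of retinoic acid synthesis, binding, breakdown and signalling, 16 were tested. In chow 2 rose and 4 fell, with a median log2 fold change of -0.09, and in HFD 2 rose and 3 fell, with a median of -0.02, where 26.6% and 24.6% of all genes were called. Tgm2, transglutaminase 2, rose by 1.85 ± 0.15 in chow and 1.72 ± 0.15 in HFD. Dhrs3, which turns retinal back into retinol, fell (-1.41 ± 0.14 and -1.58 ± 0.14), as did the partner receptor Rxra (-0.56 ± 0.15 and -0.43 ± 0.15). Crabp2, a carrier of retinoic acid, had 0 counts in both 0 h groups and averaged 1.48 ± 0.73 CPM (SD, n = 3) in chow 24 h and 0.864 ± 0.830 CPM in HFD 24 h. Against 3 counts over the group it was at least 17.3-fold and at least 5.06-fold higher. Aldh1a2, the synthesis enzyme known from the cavity lining, was named after its values were seen: it averaged 15.2 and 17 CPM in chow at 0 h and 24 h, against 7.66 and 8.60 CPM in HFD, and passed no LPS or diet test.

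Further overlaps limit the counting of single members. Prg4 shares 67 exonic bases with Tpr on the opposite strand, Gata6 93 with 1010001N08Rik and Tgfb2 124 with Gm29491. The antisense gene Gm16548 overlaps exons of both Selp (438 bases) and F5 (262 bases), and Gm16587 overlaps 186 bases of Selp. Rarb had 4 identifiers in the table, and Itga6, Prg4 and Tgfb2 had 2 each. For Prg4 the mean of the lower row was 0.406 times that of the higher.

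Within HFD, 1 library per time point stood high for many members. HFD 0 h replicate 2 was the highest of its group for 8 of the 10 members, where it was the highest for 32.9% of all tested genes. HFD 24 h replicate 2 was the highest for 6 members and for 31.4% of tested genes. The 2 libraries carry the same number in the labels. At both times replicate 2 was highest for Gata6, Icam2, Selp, Itga6, Prg4 and F5, 6 of 10 members, against 15.4% of tested genes. In chow, replicate 1 was highest at both times for Gata6 and Itga6 (12.9% of tested genes), and replicate 2 for Icam2, Rarb and Selp (8.92%). Of the 10 marker lists of other cell types, 4 had their highest sum of the HFD 0 h group in replicate 2. The B cell sum was 16.6 CPM there, against 6.66 and 8.09 CPM in the other libraries of the group, and chow 0 h replicate 3, highest for 1 member, held 23.1 CPM. The T and NK cell sum, nearly all of it Il7r, was 931 CPM against 885 and 738, and the mast cell sum 25.9 CPM against 18.5 and 25.6. The neutrophil sum was 142 CPM against 133 and 92.6. Most of it was Csf3r, with a mean of 84.6 CPM in HFD 0 h. S100a8 averaged 12.3 CPM there, and S100a9, Ly6g, Camp and Ngp were at 0 in the whole group. The part of these cells in the member values was not tested.

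**Figure D4:**
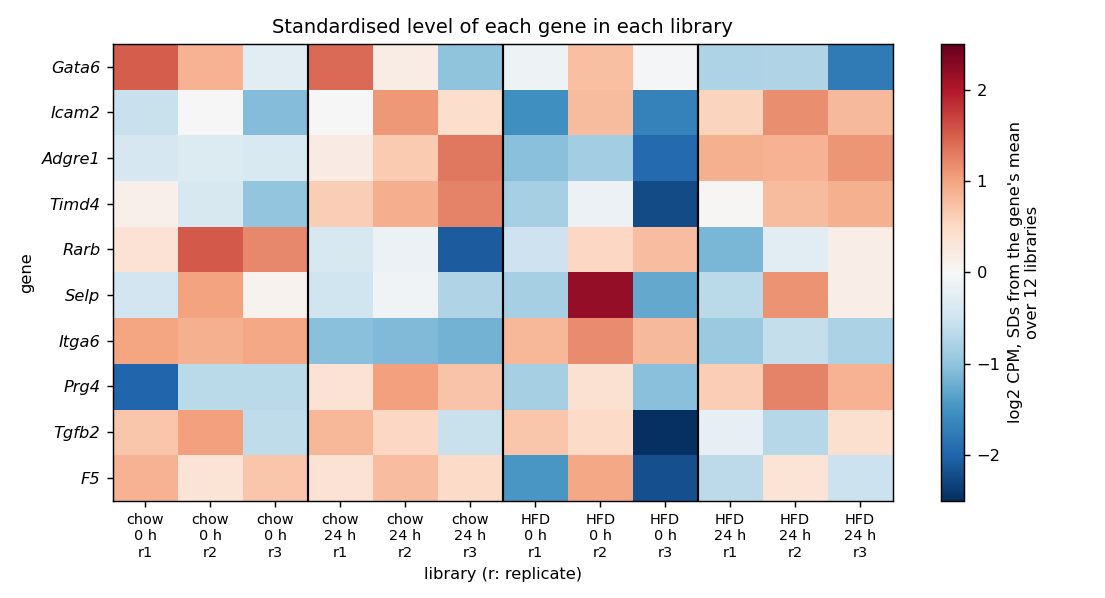
Log2 CPM of each gene in each library, as SDs from the gene's own mean over 12 libraries (colour scale from -2.5 to 2.5), with lines between the groups. Itga6 is above its mean in all 6 of the 0 h libraries and below it in all 6 of the 24 h libraries, Adgre1 shows the reverse, and HFD 0 h replicate 2 is the reddest HFD 0 h column.

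Diet differences of the members did not pass at either time. At 0 h, none of the 10 members passed edgeR's test between HFD and chow, 1 had an unadjusted p under 0.05 (6.15% of all genes), and DESeq2 and limma-voom also called 0. Of all genes tested, 0.087% passed, all of them lower in HFD. Adgre1 came closest, with every HFD 0 h library (180 to 309 CPM) below every chow 0 h library (383 to 398 CPM), a log2 fold change of -0.60 ± 0.19 and an edgeR adjusted p of 0.496. It was the only member whose diet groups did not overlap at 0 h, where 12.2% of all genes did not. Without the shallow HFD 0 h replicate 3 its value was -0.41 ± 0.18.

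At 24 h, again none of the members passed edgeR's test between the diets, 2 had an unadjusted p under 0.05 (7.86% of all genes), DESeq2 and limma-voom called 0, and 0.00791% of all genes passed. Itga6 was higher in every HFD 24 h library than in any chow 24 h library (log2 fold change 0.40 ± 0.14, edgeR adjusted p = 0.518). F5 was lower in every HFD 24 h library (-0.53 ± 0.35, edgeR adjusted p = 0.753). These were the 2 members without overlap, as for 12.3% of all genes. Diet is partly mixed with lane here, since of the HFD 24 h libraries only replicate 1 shares the lane tag of chow 24 h. That replicate was the HFD library nearest to chow for Itga6 (42.2 CPM) and the farthest for F5 (4.75 CPM). Over the alternatives the Itga6 value ran from 0.22 to 0.50 and never passed. Gata6 averaged 5.83 ± 1.37 CPM (SD, n = 3) in HFD 24 h and 11 ± 5.56 CPM in chow 24 h, a log2 fold change of -0.92 ± 0.35 (edgeR adjusted p = 0.554). The median log2 fold change of the members was -0.25 at 0 h and 0.16 at 24 h, against 0.00 over all genes at both times.

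The LPS changes of the diets were compared directly by the interaction. edgeR called 0 of the 10 members and 0% of all genes. At an unadjusted p under 0.05 these were 1 member and 2.35% of all genes, and DESeq2 called 9 genes and limma-voom 0, none of them a member. No member was thus shown to respond differently in the 2 diets. The interaction was largest relative to its error for Adgre1, whose LPS change was 0.73 ± 0.27 higher on the log2 scale in HFD (unadjusted p = 0.0167, edgeR adjusted p = 1.0), and 0.54 ± 0.24 without HFD 0 h replicate 3. For Itga6 it was 0.40 ± 0.20 and for Gata6 -0.57 ± 0.50. The comparisons share groups, so their values are not independent.

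A further 20 genes reported as enriched in large peritoneal macrophages were also split. Of 17 tested, 6 rose and 3 fell in chow (median log2 fold change 0.63), and 6 rose and 4 fell in HFD (median 0.18). The share of all genes called was 26.6% and 24.6%. Serpinb2, an inhibitor of plasminogen activators, rose by 4.81 ± 0.25 in chow and 4.06 ± 0.25 in HFD, and the acute-phase gene Saa3 by 4.0 ± 0.27 and 4.55 ± 0.28. F10, the zymogen of factor Xa, rose by 1.62 ± 0.12 and 1.85 ± 0.12, in contrast to its cofactor F5, which did not pass. Thbs1 rose by 2.58 ± 0.20 and 2.17 ± 0.20. Genes that fell, named after their values were seen, were the complement receptor Vsig4 (-2.39 ± 0.28 in chow and -2.09 ± 0.29 in HFD), Cd5l (-1.49 ± 0.33 and -1.68 ± 0.33) and Fgfr1 (-1.15 ± 0.20 and -1.45 ± 0.20).

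**Figure D5:**
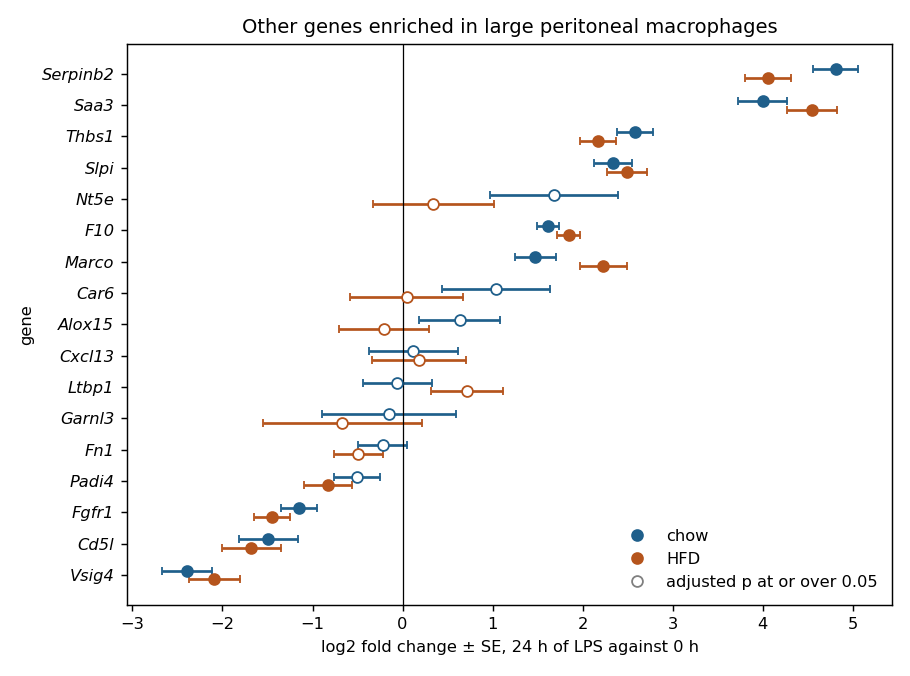
Log2 fold change with its SE for 24 h of LPS against 0 h in chow and in HFD, for the 17 tested genes of the further list; filled points passed an adjusted p of 0.05 in edgeR. Values run from 4.81 (Serpinb2, chow) to -2.39 (Vsig4, chow), on both sides of 0 as for the 10 identity genes.

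Markers of small peritoneal macrophages and monocytes, the other macrophage type of the cavity, did not move together either. Of 16 such genes 14 were tested, and 3 rose and 3 fell in each diet, against 26.6% of all genes called in chow and 24.6% in HFD. Ly6c2 rose by 5.67 ± 0.43 in chow and 5.77 ± 0.49 in HFD, and Plac8 by 3.64 ± 0.56 and 3.95 ± 0.65. The mannose receptor Mrc1 fell (-2.89 ± 0.20 and -1.99 ± 0.19), as did the monocyte chemokine receptor Ccr2 (-2.68 ± 0.37 and -1.68 ± 0.38). The summed level of the list ran from 2016 to 2731 CPM in chow 0 h, 1487 to 2275 in chow 24 h, 1940 to 2184 in HFD 0 h and 1745 to 2161 in HFD 24 h. Its part in the member values was not tested.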

How the data were processed

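RNA of 12 libraries had been isolated with a Qiagen RNeasy mini kit and made into sequencing libraries (NuGen Ovation Universal kit), as the labels' protocols state. Per the submitters' processing notes, the authors used CASAVA 1.8.2, STAR 2.5.2b and the mm10 build. Counter, annotation and strand setting: not given in the sources used here. The deposited table holds raw counts for 35745 RefSeq transcripts, and isoforms of a gene repeat the same reads, so 1 transcript stood for each gene, that of highest mean count. CPM used library totals scaled by TMM.

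Genes kept by filterByExpr were tested with edgeR 4.0.16 in R 4.3.3 (robust glmQLFit, glmQLFTest) in 1 model of 4 group means, with Benjamini-Hochberg adjustment at 0.05 over 12641 genes. The SE is the absolute log2 fold change over the square root of F. The script was tested on simulated data. Alternatives were other size factors and filters, DESeq2 1.42.0, limma-voom (3.58.1), only the groups compared, a replicate block, the lane tag, isoform sums and each library left out. Floors cover counting error only, whereas the SE and SD include the spread among libraries. Besides the members, up to 4 genes with the smallest adjusted p in a comparison were named from each list; 1 gene that this rule names is not reported here. The members and lists were chosen with earlier results of these data known.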

Additional observations from a re-analysis of the deposited data

How the results depend on the processing

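No member reversed a call under any alternative. Among single-member results, leaving out 1 library kept the side of the threshold in 584 cases, ended 14 calls and added 2, and the other alternatives kept it in 470, ended 5 and added 1. In chow, 1509 genes and 3 members passed with the lane tag as a covariate, against 3357 and 5, and only 1 member fell with no filter, with only the groups compared or with the lane tag. Diet calls at 0 h were 23 genes with no filter and 66 with DESeq2, against 11. At 24 h they were 10 with no filter, 41 with DESeq2, 10 with limma-voom and 0 with only the groups compared or the lane tag, against 1. The interaction gave 3 genes with no filter and 9 with DESeq2, against 0. The cause was not tested.

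With single libraries left out, LPS calls ran from 2535 to 3818 genes in chow and from 2520 to 3373 in HFD. Members called ran from 4 to 5 in chow (1 to 2 lower) and from 2 to 6 in HFD (1 to 5 higher). Diet calls ran from 7 (without chow 0 h replicate 2) to 25 (without HFD 24 h replicate 2) at 0 h and from 0 to 4 (without HFD 0 h replicate 3) at 24 h, and the interaction from 0 to 3 (without chow 24 h replicate 3 or HFD 0 h replicate 2).

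Libraries with the same number were not taken as pairs, since not every pair correlated above 0.1: deviations from the group means correlated at 0.0909 to 0.346 between the chow times and at 0.0293 to 0.263 between the HFD times. All 3 chow libraries and 2 of 3 HFD libraries correlated best with their own number. With the number as a replicate block, 3714 genes passed in chow, 3397 in HFD and 4 for the interaction. In that fit 2 members fell in HFD, Gata6 being added with -0.78 ± 0.23 (edgeR adjusted p = 0.0182). The numbers differ between the diets, so the diet tests were blocked on the replicate index instead, which matches chow and HFD libraries by order alone. With that block 18 genes passed for diet at 0 h and 1 at 24 h. Selp, Timd4 and Rarb, with 172, 384 and 465 counts in all, are limited by depth.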

Other observations

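Coagulation and fibrinolysis genes, the setting in which F5 acts, changed in both directions with LPS. Of 18 genes 13 were tested, and 5 rose and 4 fell in each diet, where 26.6% of all genes were called in chow and 24.6% in HFD. The von Willebrand factor gene Vwf fell, with log2 fold changes of -2.39 ± 0.17 in chow and -2.60 ± 0.16 in HFD, as did Thbd, thrombomodulin, with -1.95 ± 0.18 and -1.69 ± 0.17 (edgeR adjusted p from 2.91e-09 to 1.18e-06). The endothelial protein C receptor gene Procr rose by 2.32 ± 0.16 and 2.13 ± 0.17.

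The genes whose log2 CPM followed the mean standardised profile of the 10 members most closely over the 12 libraries were Cdkn2a (Pearson r 0.92), Ctdspl2 (0.92), Prss53 (0.91), Haspin (0.90) and Morc4 (0.89). The libraries share their preparation but differ widely in depth, so these values are a description. Cdkn2a averaged only 0.643 to 1.04 CPM in the groups, against 19.3 to 23.4 CPM for Ctdspl2. The members themselves correlated with that mean, which contains them, at -0.15 (Itga6) to 0.86 (F5).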
